A study of Mus musculus with 2 samples.

Results

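Cluster 6 is a population of 755 cells that the deposited annotation of mouse kidney single cells names PT-S1, the first segment of the proximal tubule. Its cells were chosen by that name and cluster number alone, out of 1589 PT-S1 cells and 11759 cells in all. The IRI library gave 479 of them and came from a wild-type C57BL/6 mouse of 9 weeks after unilateral ischaemia-reperfusion injury (IRI), in which the blood supply of a kidney is stopped and restored, with contralateral nephrectomy, the removal of the opposite kidney. The control library gave 276 of them and came from a normal wild-type C57BL/6 mouse, also of 9 weeks. The labels name no nephrectomy for the control, so effects of ischaemia and of nephrectomy cannot be told apart, and the time after injury is not given in the sources used here.

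The S1 segment is the first stretch of tubule after the glomerulus and recovers most of the filtered glucose, amino acids, phosphate and bicarbonate. Sodium-coupled transporters in its brush border take up these solutes, megalin (Lrp2) and cubilin (Cubn) take up filtered protein by endocytosis, and basolateral carriers pass the solutes to the blood. The work is paid for by mitochondria, largely through fatty acid oxidation, and the same cells make glucose and the creatine precursor guanidinoacetate.

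Expression is given as the mean corrected count per cell, a depth-corrected value of the deposited table and not a raw count. There is 1 library per group, hence no spread between animals and no test, and every ratio describes these libraries. Ratios are log2 values of means after adding 0.05 to each, so those of scarce genes are drawn toward 0. A gene counted as measured with at least 30 corrected counts summed over the compared cells, and as apart at a ratio of 2-fold or more. Intervals of shares are exact Clopper-Pearson 95% intervals and cover counting error only. The libraries shared 55 cell barcodes. Median depth in cluster 6 was 2992 raw UMIs (quartiles 1836.5 and 4316) and 1012 genes in IRI cells, against 4296 UMIs (2735 and 6296.75) and 1327.5 genes in control cells.

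Cluster 6 formed 9.26% of IRI cells (8.49 to 10.1) and 4.19% of control cells (3.72 to 4.70). Among PT-S1 cells alone its shares were 48.4% in the IRI library (45.3 to 51.6) and 46.0% in the control library (42.0 to 50.1), and these intervals overlap. The other PT-S1 cells were 501 IRI and 283 control cells of cluster 5 and 9 IRI and 41 control cells of cluster 27. Clusters were made from the same genes, so these sizes are a description.

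The 6 markers of S1 were found in cluster 6 of both libraries. Gatm, the amidinotransferase that starts creatine synthesis, averaged 3.50 in IRI cells and 4.90 in control cells, and was above 0 in 88.5% of IRI (85.3 to 91.2) and 98.2% of control cells (95.8 to 99.4). Cela1, an elastase-like protease, averaged 2.87 in IRI and 4.13 in control cells. Gsta2, a glutathione transferase, averaged 1.33 in IRI and 1.43 in control cells. None of these was 2-fold apart between the libraries. Slc5a12, the apical sodium-lactate transporter, stood at 0.557 in IRI and 0.583 in control cells, and Slc7a7, a basolateral carrier of cationic amino acids, at 0.455 in IRI and 0.623 in control cells. Cpn1, the catalytic subunit of carboxypeptidase N, went the other way, with 1.58 in IRI and 0.583 in control cells.

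Most cells carried several of the markers. At least 4 of the 6 were above 0 in 64.1% of IRI (59.6 to 68.4) and 69.6% of control cells (63.8 to 74.9) of cluster 6. T cells, which should lack them, gave 1.03% in IRI and 1.69% in control, at median depths of 3345 and 2606 UMIs. Gatm alone was above 0 in 10.3% of IRI and 10.2% of control T cells. Neighbouring segments carried some of these markers as well. In the S2 cluster numbered 12, Cela1 averaged 1.59 in IRI and 2.58 in control cells and Gatm 0.699 and 1.95, while Slc5a12 averaged 0.0274 and 0.121. In the S3 cluster numbered 3, Gatm averaged 1.36 in IRI and 2.17 in control cells.

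**Figure D1:**
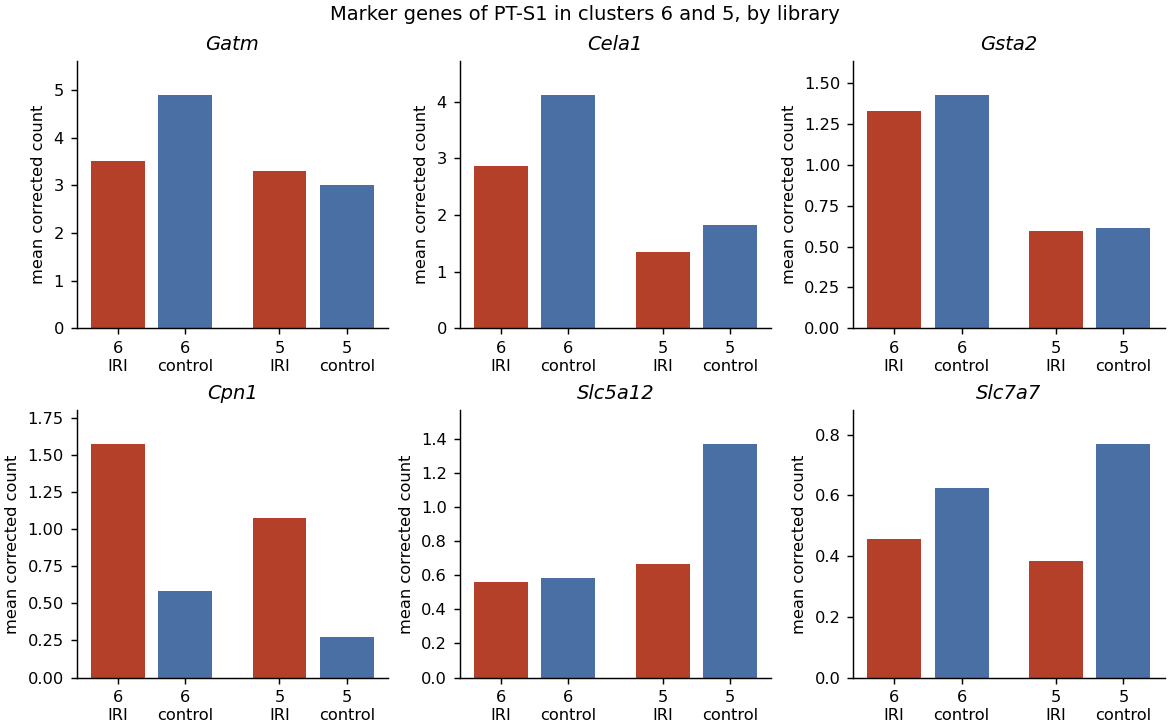
Bars give the mean corrected count per cell of the 6 S1 markers in clusters 6 and 5, IRI beside control, each axis starting at 0. Cela1 and Gsta2 are higher in cluster 6 than in cluster 5 in both libraries (Cela1 2.87 against 1.35 in IRI and 4.13 against 1.83 in control), whereas Slc5a12 is lower in cluster 6 in both.

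Other transporters of the S1 brush border were scarcer in cluster 6 than in the other PT-S1 cells. Slc5a2, the glucose transporter SGLT2, averaged 0.209 in cluster 6 against 0.786 in other PT-S1 cells of the IRI library, and 0.225 against 1.15 in the control library. Slc34a1, the sodium-phosphate transporter, averaged 1.06 against 5.84 in the IRI library and 0.880 against 6.23 in the control library. Lrp2 averaged 0.768 against 2.66 in the IRI library and 0.308 against 1.51 in the control library. Low values were not limited to cluster 6. Control cells of cluster 27, part of the other PT-S1 cells, averaged 0.122 for Slc5a2, 0.756 for Slc34a1 and 0.195 for Lrp2. Over the measured members of the apical transporter list, the median log2 ratio of cluster 6 over other PT-S1 cells was -1.51 in the IRI and -1.58 in the control library, and over the basolateral carriers -1.28 and -1.55. Over all genes measured in each library it was 0.00 and -0.12. The endocytic machinery had -0.65 and -0.50, and the leading genes of S1 -0.07 and -0.24. Not all carriers were lower: Fxyd2 had 0.96 and 0.91. The clusters were made from these genes, so this and the next paragraphs describe cluster 6 and test nothing.

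The widest gap from the other PT-S1 cells was in nuclear RNA. Malat1, a long noncoding RNA held in the nucleus, averaged 0.990 in IRI and 0.612 in control cells of cluster 6, against 163 and 190 in the other PT-S1 cells. It was 0 in 51.4% of IRI (46.8 to 55.9) and 73.9% of control cells (68.3 to 79.0) of cluster 6. In cluster 5 no cell was at 0, and the lowest cell had 19 in the IRI and 26 in the control library. Neat1, the noncoding RNA of nuclear paraspeckles, averaged 0.0647 in IRI and 0.0652 in control cells of cluster 6, against 2.75 and 2.10 in the other PT-S1 cells. The Malat1 values of clusters 6 and 5 nearly part, since the highest cell of cluster 6 had 24 in the IRI and 28 in the control library. Low Malat1 was not limited to cluster 6: the S2 cluster numbered 12 averaged 0.884 in IRI and 0.682 in control cells, and cluster 27 of S1 averaged 0.317 in its control cells. The S2 cluster numbered 1 averaged 0.920 in IRI and 0.577 in control cells, and the S3 cluster numbered 3 averaged 3.05 and 0.953. High values were not limited to cluster 5 either, since the S3 cluster numbered 8 averaged 135 in control cells.

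Mitochondrially encoded RNA was lower in cluster 6 than in cluster 5, and RNA of ribosomal proteins was higher. The median mitochondrial share of corrected counts was 13.2% in cluster 6 against 23.9% in cluster 5 of the IRI library, and 5.45% against 17.1% in the control library. Ribosomal protein genes took a median of 18.3% against 9.61% in the IRI library and 21.2% against 8.23% in the control library. Both gaps had one direction in the IRI and the control library. Such shares were not limited to cluster 6. Control cells of cluster 27 had a median mitochondrial share of 6.23% and a ribosomal protein share of 20.2%. In the S2 cluster numbered 12 these medians were 8.72% and 17.6% in IRI cells, and 7.48% and 16.9% in control cells.

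**Figure D2:**
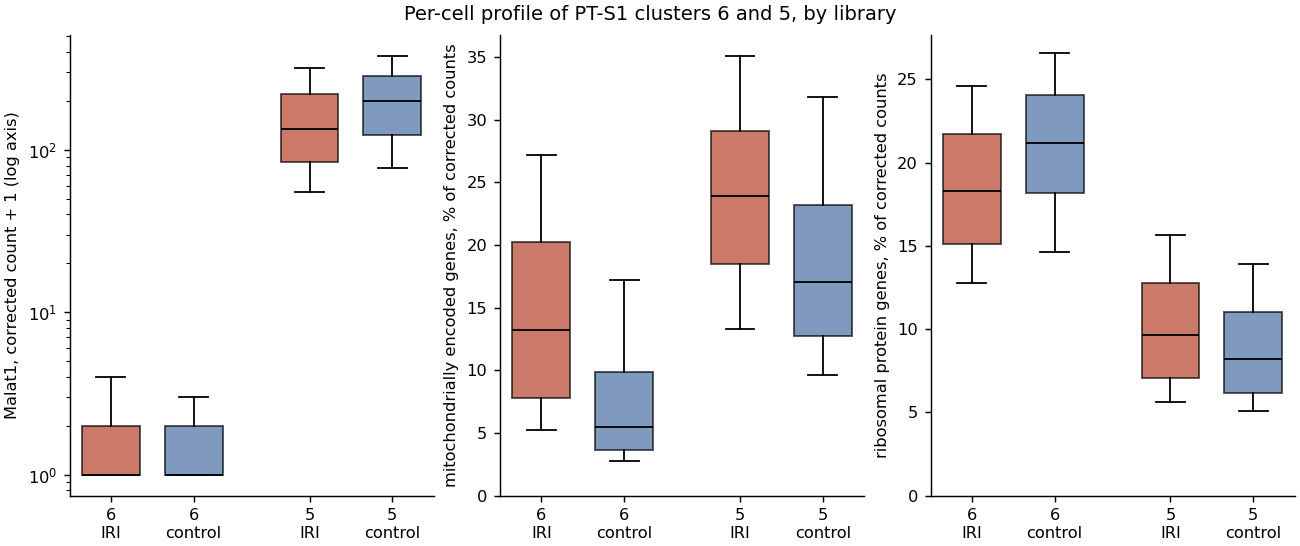
Boxes show per-cell Malat1 (corrected count plus 1, log axis), the mitochondrially encoded share and the ribosomal protein share (both % of corrected counts) for clusters 6 and 5, IRI beside control, with medians as lines, quartiles as boxes and the 10th and 90th percentiles as whiskers. The Malat1 boxes of clusters 6 and 5 are more than 10-fold apart, and in cluster 6 the median mitochondrial share is 13.2% in IRI and 5.45% in control cells.

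Genes at least 2-fold apart between cluster 6 and the other PT-S1 cells numbered 768 of 5658 measured (13.6%) in the IRI library, 290 higher (5.13%) and 478 lower (8.45%) in cluster 6. In the control library they numbered 867 of 4442 (19.5%), 162 higher (3.65%) and 705 lower (15.9%). Of 4303 genes measured in both libraries, 95 were higher in each (2.21%) and 352 lower in each (8.18%). The higher ones included 18 genes of ribosomal proteins and the lower ones 1, beside 91 such genes among all 4303. Named by the rule were Pfn1 (profilin, which binds actin), Uqcrb (a subunit of respiratory complex III), Sepw1 (a selenoprotein), Eif3e and Eif3f (subunits of a translation initiation factor), Sdhaf4 (an assembly factor of succinate dehydrogenase), S100a1, Hsbp1, Iscu (the iron-sulphur scaffold) and Fabp3 (a fatty acid carrier). Pfn1 averaged 1.59 against 0.482 in the IRI library and 1.63 against 0.617 in the control library. Uqcrb averaged 3.23 against 0.910 in the IRI library and 4.42 against 1.73 in the control library.

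Below Malat1 and Neat1, the genes that the naming rule put furthest down in cluster 6 were Snhg11 (a noncoding RNA), Slc22a30 (an organic anion transporter), Pde4d (a phosphodiesterase of cyclic AMP), Jun (a transcription factor), Timp3 (an inhibitor of metalloproteinases), Car12 (a carbonic anhydrase), Zbtb20 (a transcription factor) and RP23-306P12.3. Timp3 averaged 0.570 against 5.45 in the IRI library and 0.326 against 3.41 in the control library. Jun averaged 0.111 against 1.82 in the IRI library and 0.109 against 1.44 in the control library. Pde4d had no corrected count in the 479 IRI cells of cluster 6 and a mean of 0.00362 in its control cells, against 0.457 and 0.670 in the other PT-S1 cells.

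The genes higher and lower in cluster 6 differed in transcript length. The median longest annotated transcript was 1.23 kb for the genes higher in both libraries and 4.18 kb for those lower in both, beside 2.89 kb for all genes measured in both. Among genes under 1 kb the median log2 ratio of cluster 6 over other PT-S1 cells was 0.78 in the IRI and 0.68 in the control library. Among genes of 6 kb and over it was -0.58 in the IRI and -0.82 in the control library. The median log2 ratio of IRI over control within cluster 6 rose with each longer bin. It was -0.17 for genes under 1 kb and 0.10 for those of 6 kb and over. The part of transcript length in the ratios of single genes and lists was not tested.

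**Figure D3:**
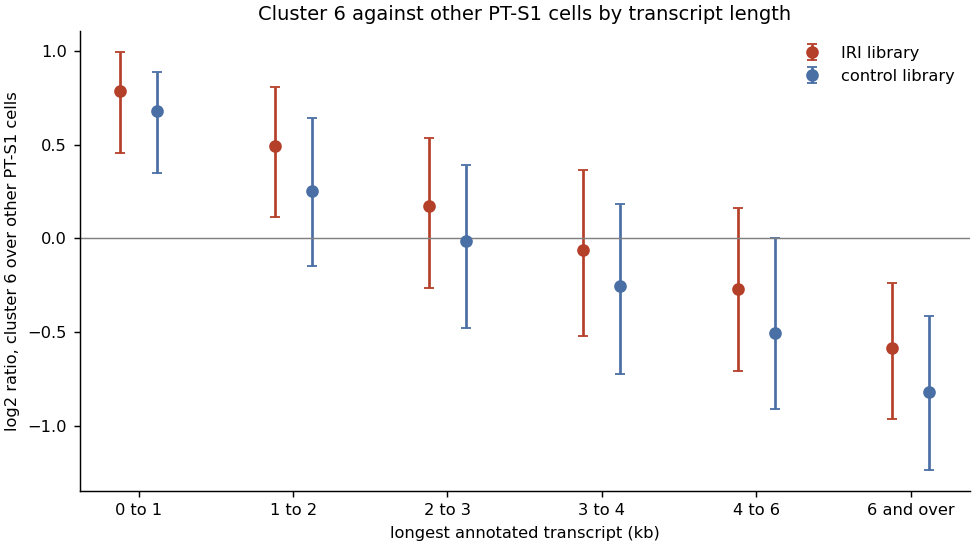
Points give the median log2 ratio of cluster 6 over other PT-S1 cells for measured genes in bins of longest transcript (kb), IRI beside control library, with bars from the lower to the upper quartile of the genes. Medians fall with each longer bin in both libraries, to -0.58 in IRI and -0.82 in control for 6 kb and over.

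Cells within cluster 6 were not alike. A mitochondrial share of 20% or more was found in 26.7% of IRI (22.8 to 30.9) and 7.61% of control cells (4.77 to 11.4), and a share under 5% in 8.98% of IRI (6.57 to 11.9) and 45.7% of control cells (39.7 to 51.7). Lrp2 followed this share: it averaged 0.0930 in IRI and 0.0556 in control cells with a share under 5%, and 1.77 in IRI and 1.62 in control cells with 20% and over. Cela1 ran the other way, with 4.49 in IRI and 4.50 in control cells under 5% and 2.38 in IRI and 2.71 in control cells with 20% and over. Gatm hardly moved, with 3.60 and 3.44 in the lowest and highest of these bands of IRI cells and 5.06 and 4.86 in those of control cells. The libraries thus differ in how many cluster 6 cells fall in each band, and values within bands stand beside the ratios that shift with them below.

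Between the libraries, few genes of cluster 6 were far apart. Of 4240 measured genes 81 were at least 2-fold apart (1.91%), 54 higher in IRI (1.27%) and 27 lower (0.637%), and the median log2 ratio of all of them was -0.02. Scaling by the median of gene ratios gave 73 higher and 20 lower. In the other PT-S1 cells of the same libraries 187 of 5770 were apart (3.24%), 83 higher (1.44%) and 104 lower (1.8%). In cluster 6, 4 measured genes were listed at 0 in control cells (Lcn2, S100a8, Tmsb10 and Lgals3), so no fold is given for them, and with 3 counts in their place 52 genes were higher.

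Of all measured genes Spp1, described with the injury genes below, had the highest log2 ratio in cluster 6, 4.09. It and other genes more than 3 times as abundant outside the proximal tubule, such as S100a6 (2.56), Lyz2 (1.99) and Tmsb4x (1.82), were left out of the ranking that named the next genes. Ndrg1, a gene known to respond to hypoxia and stress, averaged 2.87 in IRI and 1.04 in control cells, a log2 ratio of 1.42, and was above 0 in 86.0% of IRI and 59.8% of control cells. Cpn1 had a log2 ratio of 1.36, and Fgg, the gamma chain of fibrinogen, averaged 0.134 in IRI and 0.0217 in control cells (1.36). Serpinb6a, an intracellular inhibitor of serine proteases, averaged 0.225 in IRI and 0.0290 in control cells (1.80), the highest ratio named by the rule. Ndrg1 and Cpn1 are the ones among these seen in most IRI cells, whereas Fgg was above 0 in 11.7% of them. Among cells with a mitochondrial share of 10% and over, the ratio of Ndrg1 was 0.94, just inside 2-fold.

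Carriers of sulphate and dicarboxylates and the endocytic receptor were also among the named genes. Slc13a1, the apical sodium-sulphate transporter, averaged 0.307 in IRI and 0.0870 in control cells (log2 ratio 1.38). Slc13a3, a sodium-dicarboxylate transporter known from the basolateral side, averaged 0.175 in IRI and 0.0471 in control cells (1.21). Lrp2 had a log2 ratio of 1.19 over all cells of cluster 6. Its ratio was 0.72 among cells with a mitochondrial share under 10% and 0.30 among those with 10% and over, and Slc13a3 gave 0.89 and 0.83, while Slc13a1 gave 1.03 and 1.20. The glucose and amino acid carriers Slc5a2, Slc6a19 and Slc7a9 lay between -0.09 and -0.03. Slc6a19 had -0.99 among cells with a mitochondrial share of 10% and over, and Slc5a2 -0.57 among those under 10%. Under scaling by the median of gene ratios Slc6a19 had 0.05 and Slc5a2 0.03.

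Cyp2e1, a cytochrome P450 that oxidises ethanol and small solvents, averaged 0.349 in IRI and 0.0906 in control cells (log2 ratio 1.50). Acot1, an acyl-CoA thioesterase, averaged 0.171 in IRI and 0.0326 in control cells (1.42), and Mgst1, a microsomal glutathione transferase, 0.106 in IRI and 0.0145 in control cells (1.28). Acot1 has close paralogs, and how reads shared with them were counted is not given in the sources used here. Calr, a chaperone of the endoplasmic reticulum, had a ratio of 1.34, Tmem176b 1.22, Lad1 1.35, Cox6b2 1.35 and Fam25c 1.48. In cells with 2000 to 5000 UMIs, Fam25c had 0.94, Fgg 0.96 and Lad1 0.99, just inside 2-fold. In cells with a mitochondrial share of 10% and over, Acot1 had 0.87, Calr 0.94 and Lad1 0.72.

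The gene furthest down in IRI cells by the naming rule was Dnase1. Dnase1, a secreted DNA-cutting enzyme, averaged 0.0710 in IRI and 0.601 in control cells, a log2 ratio of -2.43, and was above 0 in 6.68% of IRI and 44.2% of control cells. Gadd45g, a stress sensor linked to growth arrest, averaged 0.104 in IRI and 0.739 in control cells (-2.35). Inmt, a methyltransferase of indolamines, averaged 0.102 in IRI and 0.659 in control cells (-2.22). All 3 stayed at least 2-fold lower in each subset of cluster 6 cells tried, by mitochondrial share, depth or absence of Malat1.

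Dbp, a transcription factor of the circadian output, averaged 0.213 in IRI and 0.986 in control cells (-1.98). Dnajc12, a co-chaperone of the aromatic amino acid hydroxylases, averaged 0.355 in IRI and 1.51 in control cells (-1.95). Dusp1, a phosphatase of MAP kinases, averaged 0.104 in IRI and 0.409 in control cells (-1.57). These were seen in many control cells of cluster 6, Dnajc12 in 77.5% and Dbp in 66.3%, against 29.0% and 18.4% of IRI cells. The other named genes were Cox6a2 (-1.49), Lmo4 (-1.46), Polr3e (-1.46), the lectin gene Clec2h (-1.36), Hnf4aos (-1.35), Fabp3 (-1.32), the mitophagy kinase Pink1 (-1.29), the defensin Defb29 (-1.20) and March10 (-1.15). Among cells with a mitochondrial share of 10% and over, Clec2h had -0.81 and Lmo4 -0.92, and among cells with 2000 to 5000 UMIs, Pink1 had -0.63, Fabp3 -0.97 and March10 -0.97. March10 had -0.69 among cells with Malat1 at 0. Hnf4aos runs antisense to Hnf4a, and whether strand was used in counting is not given in the sources used here.

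**Figure D4:**
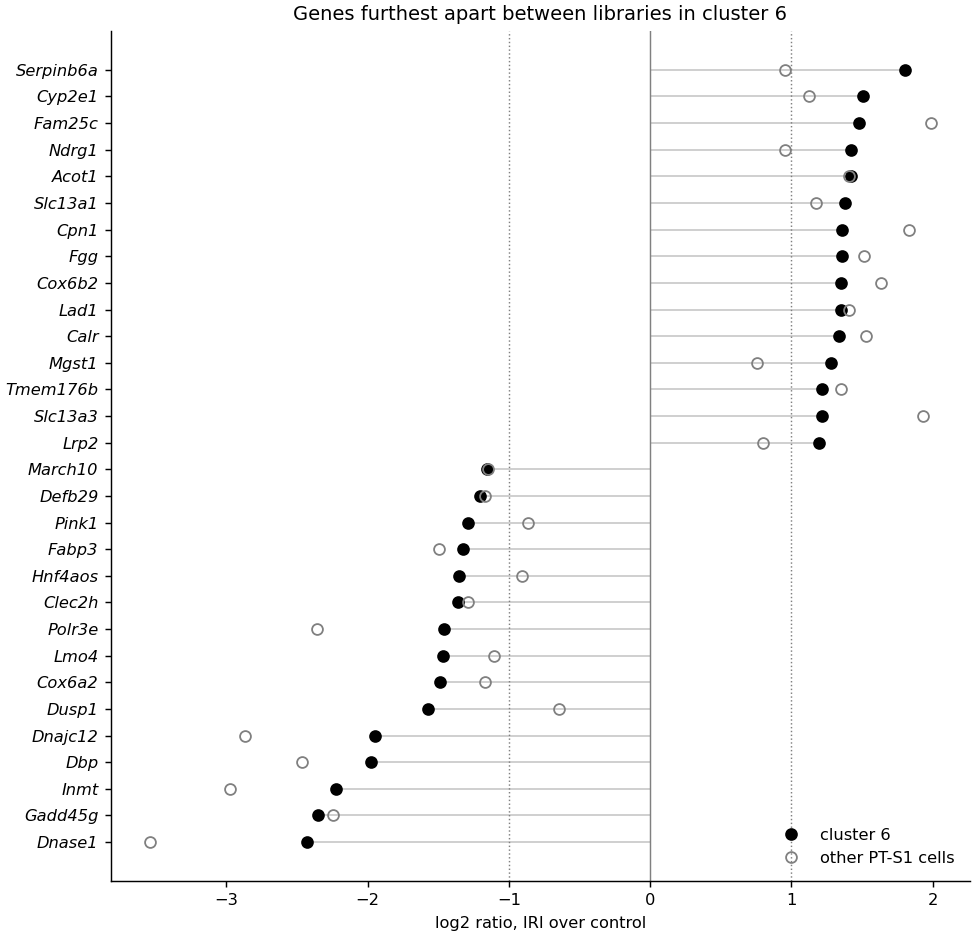
Log2 ratios of IRI over control for the 15 genes furthest up and the 15 furthest down by the naming rule, in cluster 6 (filled) and in the other PT-S1 cells of the same libraries (open), with dotted lines at 2-fold. Both populations lie on one side of 0 for each gene shown; Serpinb6a has 1.80 in cluster 6 and 0.95 in the other PT-S1 cells, and Dnase1 -2.43 and -3.54.

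Under the filters of the naming rule, Slc22a12 led the differences between cluster 6 and the other PT-S1 cells in the IRI over control ratio. Slc22a12, the urate transporter URAT1, averaged 0.313 in IRI and 0.188 in control cells of cluster 6 (log2 ratio 0.61), and 1.15 in IRI and 0.265 in control cells of the other PT-S1 (1.92). Cml3 had -0.13 in cluster 6 and -1.40 in the others, and Adh5, a class III alcohol dehydrogenase, 0.00 and -1.19. Mt1 and Mt2, the metal-binding metallothioneins, had -0.56 and -0.58 in cluster 6, and -1.99 and -2.36 in the others. These ratios come from the same 2 libraries, and no test of their difference exists here. Depth differed as well: the median was 2992 UMIs in IRI and 4296 in control cells of cluster 6, and 7026 in IRI and 5251 in control cells of cluster 5. Its part was not tested.

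Gene lists add what single genes do not show. Of 27 lists, 5 had a median log2 ratio of at least 0.5 in cluster 6 and none of -0.5 or less, beside -0.02 for all measured genes. The counts of members past 2-fold stand beside 1.91% of all measured genes. The medians of some lists crossed these limits under other settings. Some of those values stand with their lists, and not all crossings are printed. The nuclear genes of the respiratory chain were near the background, with a median of -0.19, 0 of 26 measured members 2-fold apart and 4 above 0. Mitochondrially encoded genes had a median of 0.82, with all 13 above 0 and mt-Nd3, a subunit of complex I, past 2-fold (4.29 in IRI and 1.67 in control cells, 1.33). The bands of mitochondrial share are cut on the sum of these same genes, so their ratios within bands are not read.

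**Figure D5:**
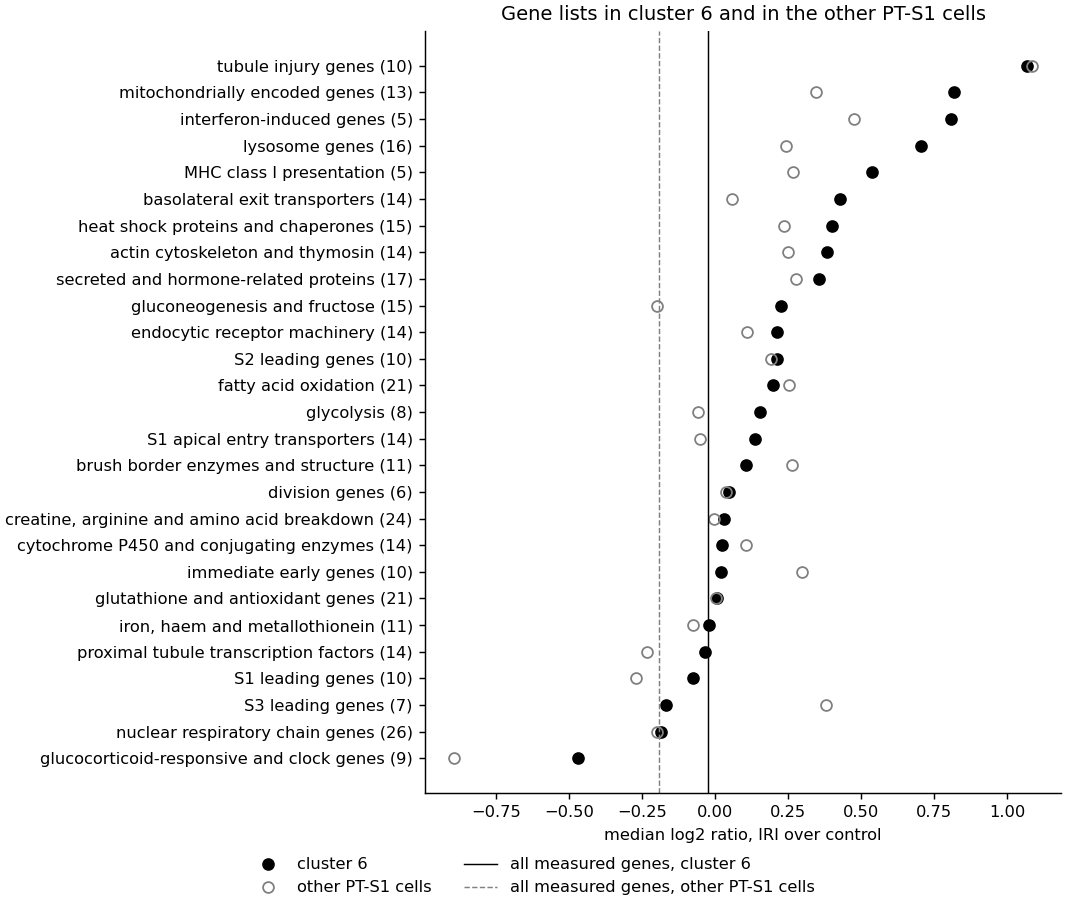
Median log2 ratio of IRI over control per gene list in cluster 6 (filled) and the other PT-S1 cells (open), each over the members measured there, with the number measured in cluster 6 in brackets and vertical lines at the medians of all measured genes (-0.02 and -0.19). As filtered here, tubule injury genes lie at 1.07 in cluster 6 (0.37 with a limit of 1 summed count), lysosome genes at 0.70, and glucocorticoid-responsive and clock genes at -0.47.

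Of 36 listed tubule injury genes only 10 were measured in cluster 6, and 5 of these were at least 2-fold higher in IRI cells. A scarce gene could reach 30 summed counts through the IRI cells alone, and 16 of the 36 were at 0 in control cells, so the list is described by single genes. Its median was 1.07, but 0.93 with Lcn2 at 3 counts in control cells, 0.73 with a limit of 10 summed counts and 0.37 with a limit of 1. Spp1, the secreted phosphoprotein osteopontin, averaged 2.65 in IRI and 0.109 in control cells (log2 ratio 4.09) and was above 0 in 82.9% of IRI and 9.78% of control cells. In T cells it was above 0 in 52.6% of IRI and 5.08% of control cells, and outside the proximal tubule it averaged 12.7 in IRI and 0.818 in control cells. S100a6, a calcium-binding protein, averaged 0.265 in IRI and 0.00362 in control cells, beside 8.52 and 0.404 outside the proximal tubule. S100a11 of the same family averaged 1.13 in IRI and 0.435 in control cells (1.29), beside 4.03 and 1.55 outside. Lcn2, the iron-carrier-binding lipocalin, averaged 0.0689 in IRI cells and was listed at 0 in control cells, beside 0.724 and 0.00115 outside. The part of RNA from other cells in these values was not tested; with 5% of each library's mean profile subtracted, Spp1 had 4.01, S100a6 1.77 and S100a11 1.30, and the list's median was 0.99. S100a8, a neutrophil marker listed at 0 in control cells, then had 0.00.

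Lysosome genes had a median of 0.70, with all 16 measured members above 0 and 3 past 2-fold. These were the proteases Ctsd (0.251 in IRI and 0.0507 in control cells, log2 ratio 1.58), Ctsb (0.292 and 0.0833, 1.36) and Ctsl (0.236 and 0.0870, 1.06). Lgmn, the lysosomal protease legumain, averaged 1.73 in IRI and 1.11 in control cells (0.62). Ctsd averaged 1.02 in IRI and 0.263 in control cells outside the proximal tubule, and Ctsb 1.08 in IRI and 0.326 in control. Among cluster 6 cells with a mitochondrial share of 10% and over, Ctsb had 0.94 and Ctsl 0.30. The list's median in cluster 6 was 0.38 with a limit of 1 summed count. It was 0.41 among cluster 6 cells with a mitochondrial share of 10% and over. In the other PT-S1 cells the list's median was 0.24.

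Genes of antigen presentation and of the interferon response were scarce. B2m, the light chain of MHC class I, averaged 0.461 in IRI and 0.138 in control cells of cluster 6 (log2 ratio 1.45), beside 3.08 in IRI and 2.51 in control cells outside the proximal tubule. Of 14 genes of class I presentation 5 were measured and 4 were at 0 in control cells. The median of the measured genes was 0.54. It was 0.36 with a limit of 10 summed counts, 0.17 with a limit of 1, and 0.40 without cells holding markers of other types. Of 18 interferon-induced genes 5 were measured, with a median of 0.81, and Ly6a (1.54) and Ly6e (1.18) were past 2-fold, though Ly6e had 0.83 among cells with Malat1 at 0. Outside the proximal tubule Ly6a averaged 1.48 in IRI and 1.52 in control cells. The part of RNA from other cells in these ratios was not tested.

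Lists of S1 function are short, and 1.91% of all measured genes were 2-fold apart between the libraries, so counts of 0 in these lists say little. The list of S1 apical transporters had a median of 0.14 with 2 of 14 past 2-fold. These were Slc13a1 and Slc13a3, though Slc13a3 is known from the basolateral side. The list of basolateral carriers had 0.43 with 0 of 14 and 11 above 0, and the endocytic machinery 0.21 with 1 of 14 (Lrp2). Slc2a2 was counted in the apical and in the basolateral list. The median of the basolateral carriers was 0.11 among cells with a mitochondrial share under 10% and -0.00 among those with 10% and over, and 0.59 among cells with at least 2000 UMIs. Brush border enzymes had 0.11 with 0 of 11, and proximal tubule transcription factors -0.03 with 0 of 14. Gluconeogenesis genes had 0.22 with 0 of 15: Pck1, the entry enzyme of the pathway, averaged 1.74 in IRI and 0.949 in control cells (0.84). Glycolysis genes had 0.15 with 0 of 8, and the breakdown of amino acids 0.03 with 0 of 24.

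For the 21 measured genes of fatty acid oxidation the median was 0.20, and 2 were past 2-fold. They were Ehhadh, the bifunctional enzyme of peroxisomes (0.146 in IRI and 0.0362 in control cells, log2 ratio 1.19), and Cyp4a10, a fatty acid hydroxylase (0.0919 and 0.0109, 1.22). In the other PT-S1 cells Ehhadh had 2.14 and Cyp4a10 2.87. Cpt1a, which readies long-chain fatty acids for entry into mitochondria, was inside 2-fold in cluster 6 (0.42).

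Glucocorticoid-responsive and clock genes had a median of -0.47 (-0.65 among cells with a mitochondrial share of 10% and over), with 1 of 9 past 2-fold (Dbp) and 2 of 9 above 0. Tsc22d3, a glucocorticoid-induced leucine zipper, averaged 0.117 in IRI and 0.181 in control cells (-0.47). Immediate early genes had a median of 0.02 and members past 2-fold on both sides, and the median depended on the genes and cells taken. It was -0.52 with a mean of at least 0.1 required, -0.67 without cells holding markers of other types, -0.88 among cells with a mitochondrial share of 10% and over, and 0.22 with a limit of 10 summed counts. Zfp36, an RNA-binding protein that speeds mRNA decay (-1.03), Dusp1 and Gadd45g were lower in IRI cells, and Cyr61, a matricellular protein, was higher (0.0689 in IRI and 0.00725 in control cells, 1.05). Both Zfp36 and Cyr61 lay near the limit: Zfp36 had -0.91 under scaling by the median of gene ratios, and Cyr61 0.71 among cells with a mitochondrial share under 10%. Chaperones had a median of 0.40 with Calr and Hsp90b1 (1.04) higher and Dnajc12 lower; Hsp90b1 had 0.19 among cells with a mitochondrial share under 10%.

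Of the remaining lists, the one for glutathione and antioxidants stood at 0.01 and held Gstm1 (1.03, and 0.84 among cells with 2000 to 5000 UMIs) as the 1 of 21 past 2-fold, and iron, haem and metallothionein genes -0.02 with 0 of 11. Cytochrome P450 and conjugating enzymes had 0.02, with Cyp2e1 and Cyp4a10 higher and Inmt lower among 14. Secreted and hormone-related proteins had 0.36, with Spp1 and Cpn1 higher and Dnase1 lower among 17. Actin and thymosin genes had 0.38: Tmsb4x, a thymosin that binds actin, averaged 0.653 in IRI and 0.149 in control cells (1.82), beside 26.4 and 9.81 outside the proximal tubule. Tmsb10 averaged 0.355 in IRI cells and was listed at 0 in control cells, beside 6.53 and 1.66 outside. Division genes had 0.05 with 0 of 6. Leading genes of S1 had -0.08 with 1 of 10 past 2-fold, those of S2 0.21 with 2 of 10, and those of S3 -0.17 with 1 of 7: Kap, an androgen-responsive kidney protein, averaged 2.13 in IRI and 5.02 in control cells (-1.22), beside 4.87 and 24.4 outside the proximal tubule.

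Markers of other cell types were mostly low in cluster 6, and some differed between the libraries. Those of the distal convoluted and connecting tubule had the highest summed mean, 1.56 in IRI and 0.935 in control cells. Among them S100g averaged 1.44 in IRI and 0.775 in control cells. At least 2 markers of macrophages and monocytes were above 0 in 16.5% of IRI (13.3 to 20.1) and 5.07% of control cells (2.80 to 8.36), and the list's summed mean was 0.793 in IRI and 0.370 in control cells. Lyz2, a lysozyme of myeloid cells, averaged 0.177 in IRI and 0.00725 in control cells. Neutrophil markers were found likewise in 3.13% of IRI cells (1.76 to 5.11) and 0 of 276 control cells, with an exact interval of 0 to 1.33% of cells with such UMIs. Red cell markers went the other way, with 0.835% of IRI and 8.33% of control cells. The summed means of T and NK cell markers were 0.00835 in IRI and 0.00362 in control cells, and 10 listed stroma genes summed to 0.0104 and 0.0145. Without the cells that held 2 or more markers of any other type (26.1% of IRI and 25.0% of control cells), Spp1 had a log2 ratio of 3.94, Cpn1 1.22, Ctsd 1.49 and Dnase1 -2.62. Lyz2 had 1.66 without these cells, against 1.99 with them.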

How the data were processed

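Library, raw UMIs, genes, cluster and cell type of every cell come from the authors' annotation and are other values per the file headers. Its numbers run together with nothing between them and were split apart with the help of the corrected totals, which matched in all 11759 cells. Where more than 1 split was possible (3615 cells), the Top2a residual of the deposited table decided. The deposited expression table is a score, SCTransform corrected counts by its values, for 15169 genes and not a raw count. Per the submitters' processing notes Cell Ranger 3.0.0, Seurat 3.2 and mm9 were used; no coordinate is given. Raw counts were not analysed here, and doublets were not called.

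Means of corrected counts per cell were compared without a test, as log2 ratios after adding 0.05, with Python 3.11.15, numpy 2.4.6, pandas 2.3.3 and scipy 1.17.1. Transcript lengths are the longest transcript per symbol in GENCODE M21, matched for 97.1% of the 4303 genes. Both libraries hold 5170 IRI cells with 16816996 raw UMIs and 6589 control cells with 24169073.

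Named for IRI over control were the 15 highest and 15 lowest ratios among measured genes with a mean of at least 0.1 in the higher library, leaving aside genes of mitochondrial DNA, ribosomal proteins, haemoglobins, Gm or Rik names, and any gene more than 3 times as abundant outside the proximal tubule of that library. For cluster 6 over other PT-S1 cells the 10 highest and 10 lowest were named by the smaller ratio of both libraries, with that last filter set against the higher of both S1 groups. The 8 widest differences between cluster 6 and other PT-S1 were ranked too, of which 4 are printed, and list members and markers are named besides. Genes listed at 0 in control cells and some list members were picked for the text after their values were seen. The members and lists were chosen with earlier results of these data known. The lists name 629 genes, of which 615 are in the table.

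The ratio was tested on simulated data: genes with a true ratio near 2-fold fell on either side of it, and after 2 failed criteria the test was set on genes clear of that limit. Alternatives were other scalings, pseudocounts, filters and subsets of cells.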

Additional observations from a re-analysis of the deposited data

How the results depend on the processing

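No paired analysis was possible because each group has 1 library and the results come from no test. The count of genes apart depends on the pseudocount. With 0.01 in place of 0.05, 292 genes of cluster 6 were 2-fold apart between libraries (202 higher and 90 lower), 655 in the other PT-S1 cells, and 1702 in the IRI and 1421 in the control library between cluster 6 and the others. With 0.2 these were 20 (9 higher and 11 lower), 48, 197 and 203; 12 of the 30 named genes were then past 2-fold and 1 list had a median of at least 0.5, since a larger pseudocount draws scarce genes toward 0. With a limit of 1 summed count 1 list had such a median. In cells with at least 2000 UMIs 96 genes of 3786 measured were higher in IRI, against 54 of 4240 over all cells. The cause was not tested. Without cells holding other types' markers 540 of 2692 measured genes separated cluster 6 from other PT-S1 cells in the control library. Over all cells these were 867 of 4442, so fewer genes were measured in that subset. The share of cluster 6 was 12.4% in IRI and 5.87% in control among cells with at least 1000 UMIs, 13.5% and 6.60% with at least 2000, 14.7% and 5.72% of PT-S1 to S3 cells, and 48.4% and 46.0% of PT-S1 cells. The other 102 values of these counts and shares stayed within 1.5 times the reported count, or within its interval. Values for single genes were counted together with the median of all measured genes. Of these, 1160 kept their side of 2-fold, 78 fell inside it and 26 passed it, and none changed sign past it. Limits on summed counts or on the mean change which genes are measured and not a gene's ratio. Single-gene values under those limits could only keep their side, so that part of the 1160 tests nothing. The count of named genes past 2-fold, among the 102, could not move under them either. The bands of mitochondrial share, Malat1 at 0, 2000 to 5000 UMIs and cluster 5 alone were chosen after seeing the data. Of list medians, 400 kept their side of 0.5, 18 passed it and 14 no longer did. Depth limits scarce genes: a gene with no corrected count in the 276 control cells of cluster 6 cannot be called absent.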
